A study of Mus musculus with 6 samples.

Results

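The receptors that set the tone of airway smooth muscle were followed in mouse lungs that carry or lack the Zpbp2 region, in reads counted at ZT10, 10 h after lights on. The 9 receptor genes were taken by their symbols from the 47069 genes counted, and 7 of them encode constrictor receptors (Chrm1, Chrm2, Chrm3, Hrh1, Cysltr1, Cysltr2 and Ednra) and 2 dilator receptors (Adrb1 and Ptger2). The KO group was 3 mice (KO4, KO5 and KO6) of the strain B6.129S7-Zpbp2 tmZuk/Mmjax, in which exons 1 to 3 of Zpbp2 are deleted. The WT group was 3 C57BL/6J mice (WT4, WT5 and WT6) born and kept in the same colony, and all 6 were adults on a light/dark cycle. The strain name records that the deletion was made in 129-derived cells, and what the surrounding chromosome carries was not examined here. Lung RNA was sequenced, 1 library per mouse, so a level is an average over all cells of the tissue taken. In such bulk tissue fewer cells of a type and less RNA per cell cannot be told apart. The labels do not give litter or sex, and the p-values below measure only the spread between these mice.

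Airway calibre follows from the balance of signals that contract and relax the smooth muscle around the bronchi. Constrictor receptors such as the muscarinic receptor of Chrm3 act mostly through Gq, which raises calcium in the muscle cell, and through RhoA, which keeps the contractile proteins active. Dilator receptors act mostly through Gs and cyclic AMP, which oppose both. Several of these receptors are also found on nerves, vessels, epithelium and white blood cells, which are all part of lung tissue.

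Library totals ran from 19981428 to 46796908 counted reads, and KO5 was the deepest library. The smallest number of reads taken as detected, 3 counts, equals between 0.0629 and 0.148 CPM (counts scaled to a common library size), and this floor covers counting error only. All CPM values use library sizes scaled by TMM. Zpbp2 itself lay at 0.0403, 0.0958 and 0.0647 CPM in WT4, WT5 and WT6 and at 0 in the 3 KO mice, too low in the WT lung to measure its loss. Xist lay between 715.0 and 993.7 CPM in the 6 mice, and 4 Y-linked genes had at most 9 counts in any library. This is the pattern of female tissue in all 6 libraries, although the labels give no sex.

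RefSeq gave promoter windows for 7 of the 9 genes, with none for Chrm1 and Cysltr1. The windows of 3 genes are printed here as the 250 bases before the start that RefSeq gives in GRCm38.p6, 5′ to 3′ on the strand of the gene. The RefSeq starts are not the GENCODE gene ends given with each gene below: they lie before the GENCODE start of Adrb1 and Ptger2 and inside the GENCODE gene for Chrm3. Adrb1 is shown as the receptor with the highest level per length, and Chrm3 and Ptger2 as a constrictor and a dilator receptor whose KO values all lay above their WT values. The windows are 19:56721867-56722116 on the plus strand for Adrb1, 13:10360804-10361053 on the minus strand for Chrm3 and 14:44987861-44988110 on the plus strand for Ptger2. Capitals mark TGACG, the core of the cyclic AMP response element.
Adrb1: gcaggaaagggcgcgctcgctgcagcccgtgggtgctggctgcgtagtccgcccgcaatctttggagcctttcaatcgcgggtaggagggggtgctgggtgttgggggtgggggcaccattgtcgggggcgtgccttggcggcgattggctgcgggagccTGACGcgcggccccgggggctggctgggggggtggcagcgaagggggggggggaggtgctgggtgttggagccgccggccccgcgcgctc
Chrm3: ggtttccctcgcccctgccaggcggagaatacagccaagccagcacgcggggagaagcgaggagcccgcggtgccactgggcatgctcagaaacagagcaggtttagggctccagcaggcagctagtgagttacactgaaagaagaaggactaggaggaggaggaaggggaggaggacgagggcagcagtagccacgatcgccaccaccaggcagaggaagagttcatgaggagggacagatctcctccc
Ptger2: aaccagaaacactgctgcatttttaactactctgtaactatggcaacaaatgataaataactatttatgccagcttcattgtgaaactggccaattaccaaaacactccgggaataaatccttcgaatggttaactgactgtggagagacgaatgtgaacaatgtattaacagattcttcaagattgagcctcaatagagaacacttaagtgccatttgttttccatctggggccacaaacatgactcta
The 10 windows of the 7 genes were searched on both strands for 3 motifs that do not overlap each other. CACGTG, an E-box that clock factors can bind, was in 0 of the 10 windows and in 6.02% of all 32851 RefSeq windows of this length. AGGTCA, the core of the sites of many nuclear receptors, was in 1 window of Hrh1 and in 14.0% of all windows. TGACG was in the window of Adrb1, with its 5′ end 90 bases before the RefSeq start, and in 17.8% of all windows. The 3 printed windows differed in base composition, with 74.0% G and C in Adrb1, 61.2% in Chrm3 and 38.0% in Ptger2.

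Levels of different genes were compared per length, as CPM per kb of annotated exon, over all 6 mice. Adrb1, the β1-adrenergic receptor, had the highest level, with a mean of 22.8 CPM per kb and a range of 20.1 to 25.8, above 87.1% of the 16962 tested genes with a known length. Ednra, the endothelin receptor type A, followed at 11.3 CPM per kb (9.56 to 12.7) and Chrm2, the muscarinic M2 receptor, at 4.73 CPM per kb (3.66 to 6.21). These 3 genes were separated from each other and from all lower receptors in every mouse. Below them lay Ptger2 at 1.57, Cysltr1 at 1.52, Chrm3 at 1.15 and Cysltr2 at 0.702 CPM per kb. The ranges of neighbours in this middle group overlapped, and Ptger2 exceeded Cysltr1 in 5 of 6 mice. Hrh1 at 0.144 and Chrm1 at 0.117 CPM per kb were lowest, with overlapping ranges, and Chrm1 lay above only 1.19% of the tested genes. With the length of the longest transcript in place of all exons, Chrm3 (1.67 CPM per kb) and Cysltr1 (1.52 CPM per kb) changed places and the other ranks stayed.

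**Figure D1:**
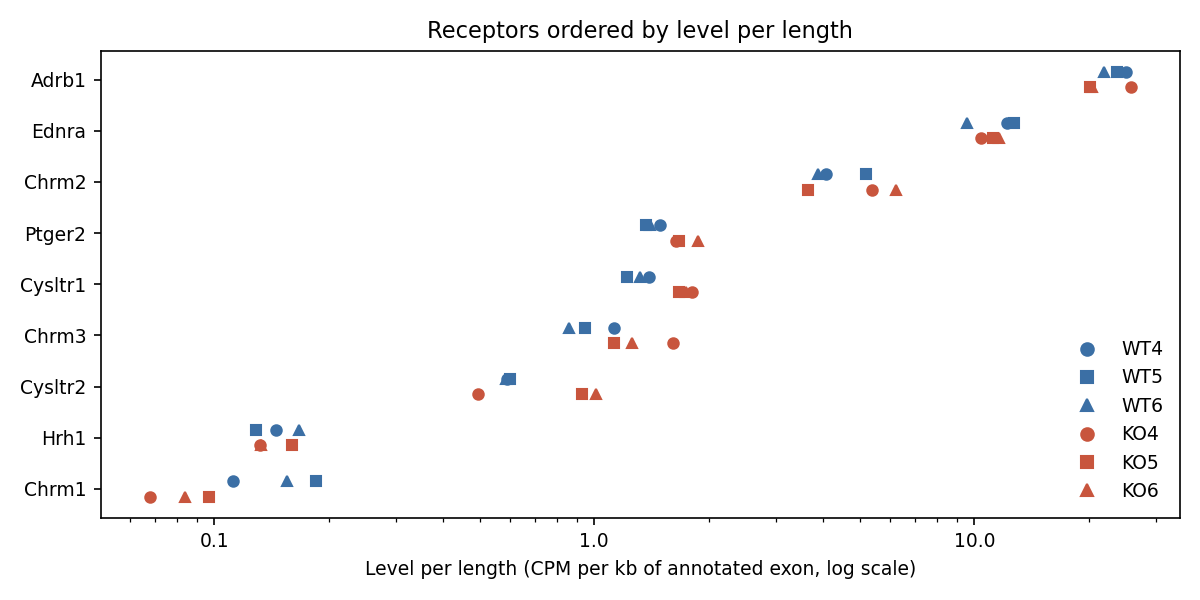
Level of each receptor in each mouse, in CPM per kb of annotated exon on a log axis, with genes ordered by their mean over the 6 mice and one point per mouse. Adrb1, Ednra and Chrm2 stand apart from the other receptors, and Hrh1 and Chrm1 lie lowest.

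None of the 9 receptors passed an adjusted p of 0.05 between KO and WT lungs by the quasi-likelihood test of edgeR, with p adjusted by Benjamini-Hochberg over the 17037 genes tested. All 9 were expressed highly enough to be tested. Over all genes 6.39% passed this threshold, 3.72% higher and 2.67% lower in KO mice. At an unadjusted p of at most 0.05, 4 of the 9 passed (Chrm1, Chrm3, Cysltr1 and Ptger2), against 25.5% of all genes. DESeq2 passed 0 of the 9 after adjustment and 2 before it (Chrm3 and Cysltr1), where it passed 11.3% of the genes it tested after adjustment. The edgeR exact test passed 0 after adjustment and 2 before it (Chrm1 and Cysltr1), where it passed 8.62% of all genes after adjustment. For DESeq2 and the exact test the share of all genes before adjustment was not counted, so their unadjusted counts have no background beside them. The KO values lay wholly above the WT values in 3 of 9 receptors, against 17.0% of all genes, and wholly below them in 1, against 15.6%. Taken in either direction these are 4 of 9 receptors beside 32.6% of all genes. The median log2 fold change was 0.21 over the 9 receptors and 0.00 over all genes tested, with 5 receptors above 0 and 4 below. Adjusted p-values given for single genes below come from this edgeR test, and an exact permutation test of 3 mice against 3 cannot give a p below 0.1.

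**Figure D2:**
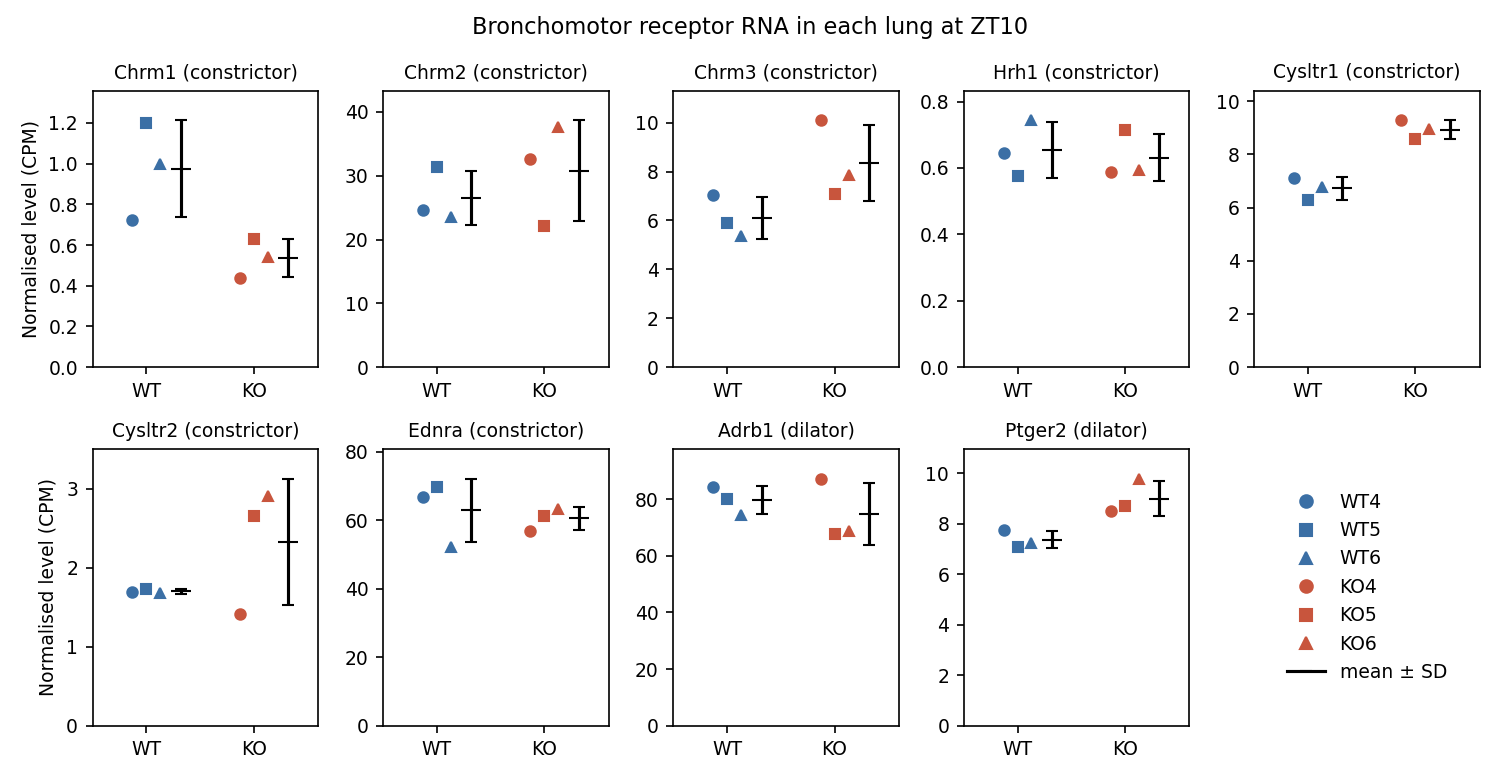
Normalised level in CPM of each receptor in each of the 3 WT and 3 KO lungs, with the group mean and SD in black and axes that start at 0. The groups are separate for Chrm1, Chrm3, Cysltr1 and Ptger2 and overlap for the other 5 receptors.

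Of the muscarinic receptors, which bind acetylcholine from the vagal nerves, Chrm3 is the one that contracts airway smooth muscle directly. Chrm3 (ENSMUSG00000046159, GRCm38 chromosome 13 from 9875486 to 10360847, minus strand) had 7.04, 5.89 and 5.37 CPM in WT4, WT5 and WT6 and 10.1, 7.09 and 7.85 CPM in KO4, KO5 and KO6. The KO mice lay above the WT mice, but KO5 was only just over WT4, and KO4 was the highest. Mean levels were 6.1 ± 0.857 CPM (SD, n = 3) in the WT and 8.34 ± 1.55 CPM (SD, n = 3) in the KO group. On the log2 scale the difference was 0.45 (standard error 0.174, 95% confidence interval 0.04 to 0.86), a ratio of 1.36, with an edgeR adjusted p of 0.165. Without KO4 it was 0.29, and without WT4 it was 0.56.

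Chrm2, which couples to Gi, opposes relaxation in the muscle and limits acetylcholine release from nerve endings, and it is also the main muscarinic receptor of the heart. Chrm2 (ENSMUSG00000045613, chromosome 6 from 36388084 to 36528414, plus strand) measured 24.6, 31.4 and 23.5 CPM in the WT and 32.7, 22.1 and 37.6 CPM in the KO mice. The groups overlapped, and KO5 held the lowest value of all 6. The log2 fold change of 0.21 (standard error 0.202, interval -0.26 to 0.69) had an edgeR adjusted p of 0.563. It moved between 0.04 without KO6 and 0.41 without KO5, and both of these libraries hold extreme values of Chrm2. Of the muscarinic level per length in Chrm1, Chrm2 and Chrm3 together, Chrm2 made up 76.6, 82.1 and 79.3% in the WT and 76.3, 74.9 and 82.2% in the KO mice, so the shares overlapped.

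Chrm1, a Gq-coupled muscarinic receptor of ganglia and glands, was counted on few reads, with 18, 25 and 31 counts in the WT and 9, 30 and 11 in the KO mice. As CPM these were 0.725, 1.2 and 1.0 in WT4, WT5 and WT6 and 0.44, 0.629 and 0.543 in KO4, KO5 and KO6. Each KO mouse lay below each WT mouse, with KO5 nearest to WT4. Chrm1 (ENSMUSG00000032773, chromosome 19 from 8663789 to 8683587, plus strand) differed by -0.81 on the log2 scale, KO minus WT (standard error 0.278, interval -1.47 to -0.16), a ratio of 0.569, with an edgeR adjusted p of 0.126. This was the only one of the 9 receptors whose KO values lay wholly below the WT values. Leaving out single mice moved the log2 fold change between -0.99 and -0.66.

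Hrh1, the H1 receptor of histamine, grouped here with the constrictor receptors, had 16, 12 and 23 counts in the WT and 12, 34 and 12 in the KO mice. On the CPM scale it lay at 0.644, 0.575 and 0.744 in WT4, WT5 and WT6 and at 0.587, 0.713 and 0.593 in KO4, KO5 and KO6. The groups overlapped throughout. Hrh1 (ENSMUSG00000053004, chromosome 6 from 114397936 to 114483296, plus strand) had a log2 fold change of -0.04 with an interval of -0.69 to 0.61 and an edgeR adjusted p of 0.976. Its standard error of 0.277 is the counting error alone, so at this depth a ratio between 0.619 and 1.53 could not be told from no difference.

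The cysteinyl leukotriene receptors respond to lipid mediators of mast cells, eosinophils and macrophages, and Cysltr1 is the target of montelukast. Cysltr1 (ENSMUSG00000052821, chromosome X from 106574346 to 106603679, minus strand) measured 7.13, 6.28 and 6.79 CPM in WT4, WT5 and WT6 and 9.29, 8.58 and 8.94 CPM in KO4, KO5 and KO6. The KO mice lay clear of the WT mice, and both groups were tight. Mean levels were 6.73 ± 0.427 CPM (SD, n = 3) in the WT and 8.94 ± 0.354 CPM (SD, n = 3) in the KO group. The log2 fold change of 0.41 (standard error 0.106, interval 0.16 to 0.66), a ratio of 1.33, had an edgeR adjusted p of 0.0674, the lowest of the 9 receptors. Leaving out single mice moved it between 0.36 and 0.45, and its adjusted p over all 13 alternatives ran from 0.0626 to 0.223.

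Cysltr2, the other cysteinyl leukotriene receptor, had 1.69, 1.73 and 1.68 CPM in the WT and 1.42, 2.66 and 2.91 CPM in the KO mice. KO4 lay below every WT mouse, and KO5 and KO6 lay above them. Cysltr2 (ENSMUSG00000033470, chromosome 14 from 73025603 to 73049114, minus strand) differed by 0.47 on the log2 scale, KO minus WT (standard error 0.272, interval -0.17 to 1.1), with an edgeR adjusted p of 0.329. Without KO4 the log2 fold change was 0.71 with an edgeR adjusted p of 0.0594, while without KO6 it was 0.30 (edgeR adjusted p = 0.601) and without KO5 0.34 (edgeR adjusted p = 0.552). The ratio of Cysltr1 to Cysltr2 per length was 2.36, 2.03 and 2.25 in the WT and 3.66, 1.8 and 1.72 in the KO mice, so KO4 was also apart by this measure.

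Ednra binds endothelin and contracts smooth muscle of vessels and airways. It had 66.7, 69.7 and 52.3 CPM in WT4, WT5 and WT6 and 57.0, 61.4 and 63.4 CPM in KO4, KO5 and KO6. All 3 KO values fell between the lowest and the highest WT value. Ednra (ENSMUSG00000031616, chromosome 8 from 77663031 to 77724464, minus strand) differed by -0.05 on the log2 scale, KO minus WT (standard error 0.109, interval -0.31 to 0.2), with an edgeR adjusted p of 0.809. Its counts, 1165 to 2927 per mouse, were among the highest of the 9, and the interval corresponds to ratios between 0.808 and 1.15.

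Of the dilator receptors, Adrb1 answers to noradrenaline and adrenaline and raises cyclic AMP through Gs. Adrb1 (ENSMUSG00000035283, chromosome 19 from 56722199 to 56733113, plus strand) measured 84.5, 80.1 and 74.5 CPM in WT4, WT5 and WT6 and 87.3, 67.9 and 68.9 CPM in KO4, KO5 and KO6. KO4 was the highest mouse of all and the other KO mice were the lowest, so the groups overlapped. The log2 fold change was -0.09 (standard error 0.105, interval -0.34 to 0.15), with an edgeR adjusted p of 0.62. It was -0.22 without KO4, -0.03 without KO5, -0.04 without KO6, -0.05 without WT4 and -0.14 without WT6.

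Ptger2, the EP2 receptor, relaxes airway muscle in response to prostaglandin E2 and is also found on macrophages and other white blood cells. Ptger2 (ENSMUSG00000037759, chromosome 14 from 44988195 to 45003820, plus strand) had 7.73, 7.09 and 7.24 CPM in the WT and 8.51, 8.69 and 9.78 CPM in the KO mice. Each KO mouse lay above each WT mouse. Mean levels were 7.36 ± 0.333 CPM (SD, n = 3) in the WT and 8.99 ± 0.688 CPM (SD, n = 3) in the KO group. This is a log2 fold change of 0.29 (standard error 0.108, interval 0.03 to 0.54), a ratio of 1.22, with an edgeR adjusted p of 0.154. On the opposite strand the gene Gm17173, with 5 to 33 counts, shares 246 bp of exon with Ptger2 (4.74% of its exon length). The strand setting of the counting is not given in the sources used here, so reads from that stretch could not be assigned to a strand. Chrm1 (329 bp), Chrm2 (142 bp) and Ednra (91 bp) share shorter or little-read stretches with opposite-strand genes, and those genes had at most 46 counts in any library.

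**Figure D3:**
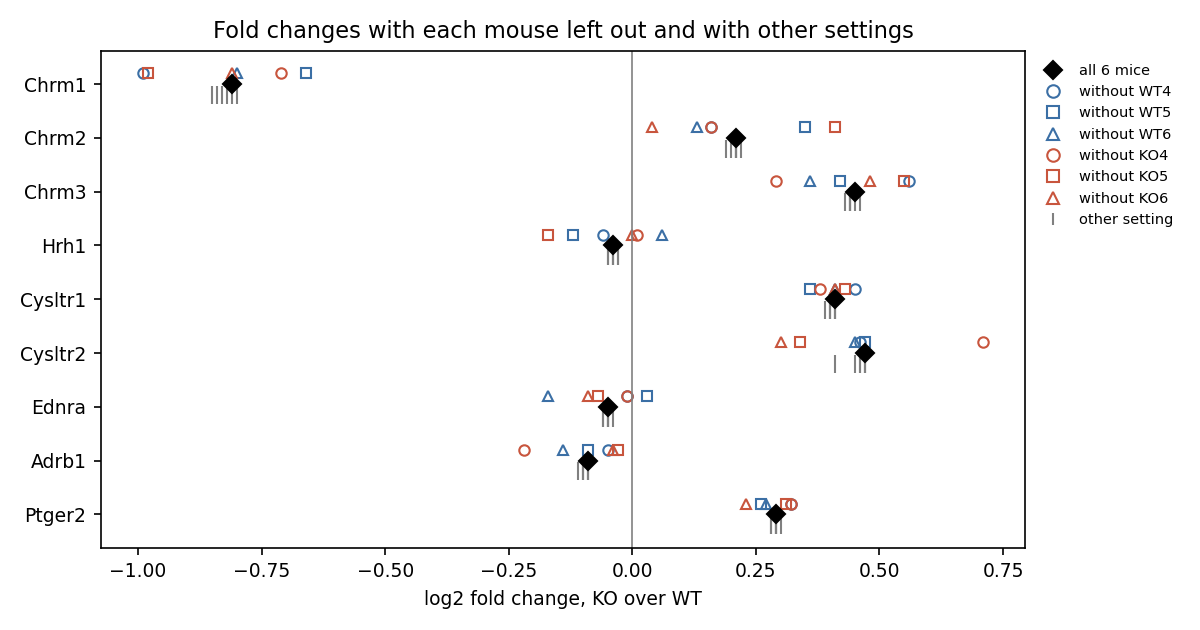
Log2 fold change of KO over WT for each receptor with all 6 mice (black diamonds), with each mouse left out in turn (open symbols) and with the other settings (grey ticks). Hrh1 and Ednra cross 0 when single mice are left out, and Cysltr1 (0.36 to 0.45) and Ptger2 (0.23 to 0.32) move least.

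Constrictor and dilator receptors were set beside each other. The median log2 fold change of the 7 constrictor receptors was 0.21, with 4 above 0 and 3 below, and that of the 2 dilator receptors was 0.10, with 1 on each side. Neither group held a gene that passed the test. Summed per length, the constrictor receptors gave 19.6, 21.0 and 16.5 CPM per kb in WT4, WT5 and WT6 and 19.9, 18.8 and 22.0 CPM per kb in KO4, KO5 and KO6. The dilator receptors gave 26.5, 25.1 and 23.4 CPM per kb in the WT and 27.4, 21.8 and 22.3 CPM per kb in the KO mice. Both sums overlapped between the groups. Their ratio, constrictor over dilator, was 0.761 ± 0.0669 (SD, n = 3) in WT and 0.86 ± 0.132 (SD, n = 3) in KO mice, with KO6 highest at 0.989 and KO4 at 0.725 within the WT range. Ednra and Chrm2 make up most of the first sum and Adrb1 nearly all of the second, and the 2 dilator genes are only some of the dilator receptors of the lung. The ratio of Adrb1 to Ptger2 per length was 16.8, 17.3 and 15.7 in the WT and 15.7, 12.0 and 10.9 in the KO mice, lowest in KO5 and KO6. These sums and ratios are given as descriptions without a test.

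Beyond these 9, a list of 44 other receptors of airway tone held 36 that could be tested, and 2 of them passed the threshold, both dilator receptors and both higher in KO mice. Over all genes tested the share that passed was 6.39%, so these 2 of 36 are no more than the background. Hrh2, the H2 receptor through which histamine raises cyclic AMP, had 0.886, 0.863 and 1.07 CPM in the WT and 2.3, 2.27 and 1.68 CPM in the KO mice. Every KO mouse was above every WT mouse, on 18 to 108 counts. Its log2 fold change was 1.14 (standard error 0.208, edgeR adjusted p = 0.0287), beside -0.04 for Hrh1. Adora2a, a Gs-coupled adenosine receptor that is abundant on white blood cells, had 5.03, 4.12 and 4.59 CPM in the WT and 7.14, 11.3 and 7.7 CPM in the KO mice. The groups were again separate, with KO5 highest. Its log2 fold change was 0.94 (standard error 0.201, edgeR adjusted p = 0.0426). When single mice were left out, Hrh2 passed in 1 and Adora2a in 2 of 6 fits. None of the 23 other constrictor receptors tested passed in edgeR's test, with 2 of them at an unadjusted p of at most 0.05 and 1 called by DESeq2 and 1 by the edgeR exact test. Of the 13 other dilator receptors tested, 6 had an unadjusted p of at most 0.05 in edgeR's test, beside 25.5% of all genes. DESeq2 called 4 other dilator receptors and the edgeR exact test called 2, beside 11.3% and 8.62% of the genes they tested. The KO values lay wholly above the WT values in 5 of the 13 and wholly below them in 2, beside 17.0% and 15.6% of all genes. Of the constrictor receptors, Ptafr, the receptor of platelet-activating factor, had a log2 fold change of 0.84 (edgeR adjusted p = 0.0584). Bdkrb1, a bradykinin receptor, had one of -1.25 (edgeR adjusted p = 0.109). Of the dilator receptors, Ptgir had one of 0.43 (edgeR adjusted p = 0.0523) and Vipr2 one of -0.37 (edgeR adjusted p = 0.109). Ptafr, Bdkrb1, Ptgir and Vipr2 were all named after their values were seen. The median over the 36 receptors was -0.01.

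**Figure D4:**
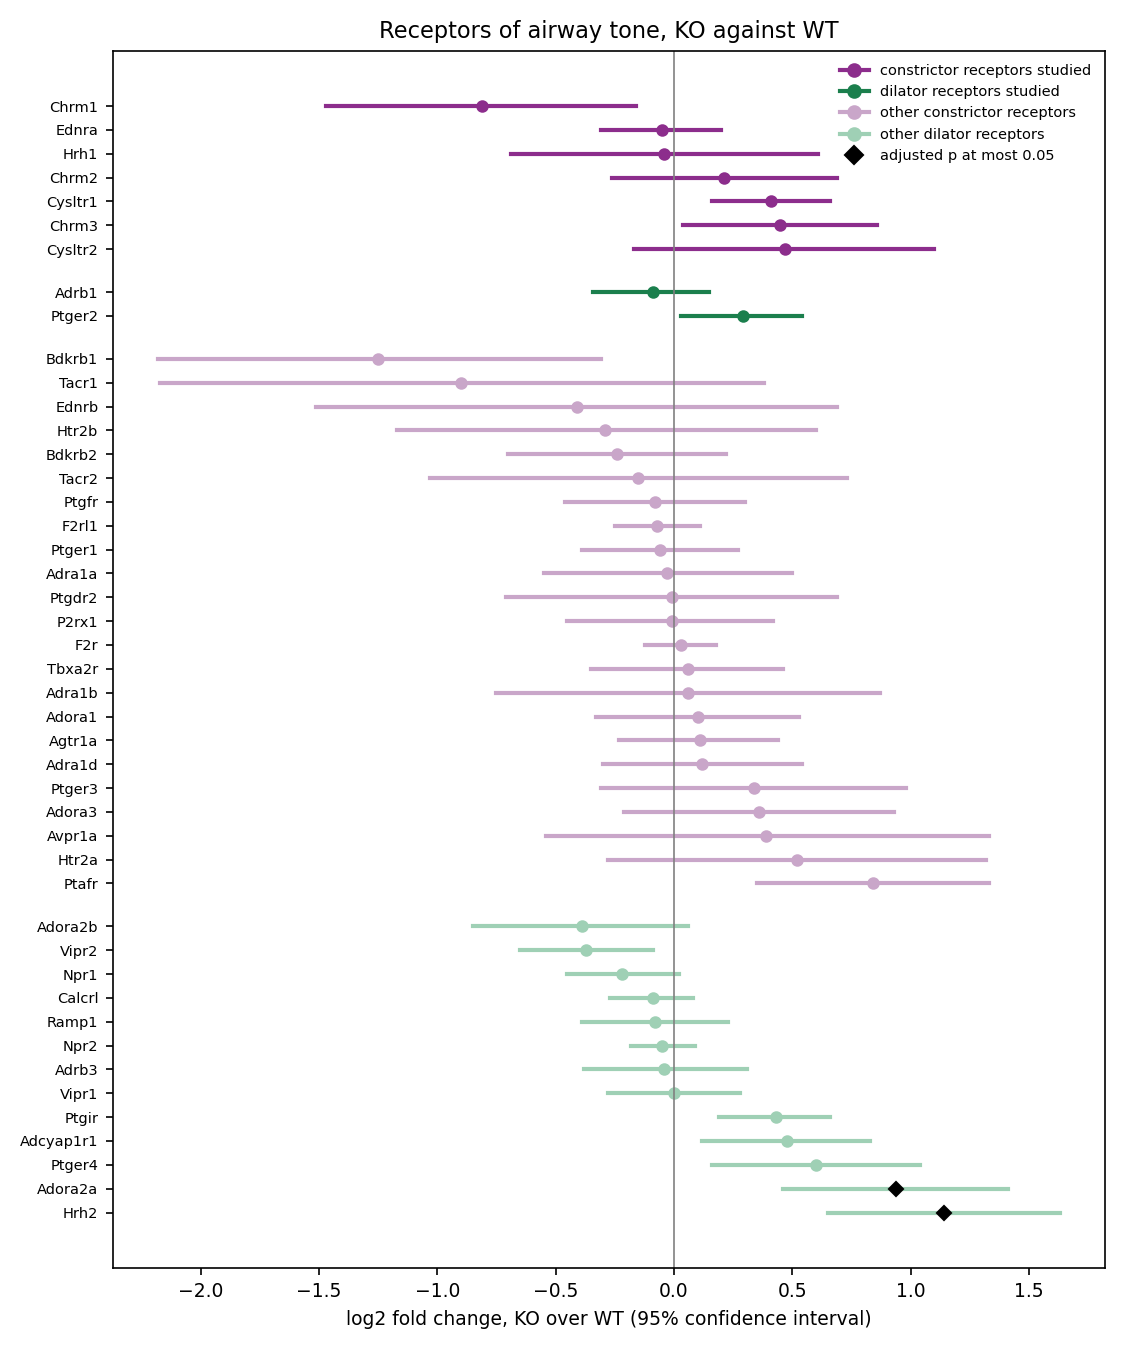
Log2 fold change of KO over WT with its 95% confidence interval for the 9 receptors and for the 36 other receptors of airway tone that were tested. Black diamonds mark Hrh2 and Adora2a, the only receptors drawn with an adjusted p of at most 0.05.

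The genes that make, clear or transmit the signals of these receptors were counted from lists of the same kind. Of the 12 genes of leukotriene synthesis and breakdown, which supply the ligands of Cysltr1 and Cysltr2, 2 passed the threshold, both higher in KO mice. Over all genes tested the share that passed was 6.39%, with 3.72% higher and 2.67% lower in KO mice. Mgst2, a leukotriene C4 synthase of many tissues, measured 9.86, 10.7 and 9.54 CPM in the WT and 15.2, 15.2 and 15.4 CPM in the KO mice, with a log2 fold change of 0.60 (edgeR adjusted p = 0.0178). Alox5ap, which presents arachidonic acid to 5-lipoxygenase, measured 24.4 ± 3.26 CPM (SD, n = 3) in WT and 33.5 ± 2.31 CPM (SD, n = 3) in KO mice, with a log2 fold change of 0.46 (edgeR adjusted p = 0.0492). With single mice left out, Mgst2 passed in 2 and Alox5ap in 1 of 6 fits. The median of this list was 0.13, beside 0.41 for Cysltr1 and 0.47 for Cysltr2.

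Of the 11 tested genes of prostanoid synthesis and breakdown, which include those for the ligand of Ptger2, 1 rose and 1 fell. Beside these stand 3.72% of all genes tested that passed higher and 2.67% that passed lower in KO mice. Hpgds, the prostaglandin D synthase of mast cells and macrophages, had 2.46, 2.2 and 3.43 CPM in the WT and 5.82, 7.66 and 6.37 CPM in the KO mice, a log2 difference of 1.29 (standard error 0.205, edgeR adjusted p = 0.0227). Ptges3, also known as the Hsp90 co-chaperone p23, fell from 143.2 ± 17.6 CPM (SD, n = 3) in WT to 102.5 ± 3.97 CPM (SD, n = 3) in KO mice (edgeR adjusted p = 0.0309). Its log2 fold change was -0.48. With single mice left out, Hpgds passed in 2 and Ptges3 in 1 of 6 fits.

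In the list of Gq and RhoA signalling, downstream of the constrictor receptors, 2 of 31 tested genes rose and 1 fell. The shares over all genes tested were 3.72% higher and 2.67% lower in KO mice, not far from these counts. Rgs2 and Rgs5 encode regulators that shorten Gq signals, and both are found in smooth muscle or pericytes. Rgs2 measured 66.5, 58.8 and 76.7 CPM in the WT and 94.1, 87.4 and 109.0 CPM in the KO mice (log2 fold change 0.52, edgeR adjusted p = 0.0457), and Rgs5 had a log2 fold change of 0.95 (edgeR adjusted p = 0.0367). Rock2, the kinase through which RhoA sustains contraction, had 285.8, 318.5 and 334.8 CPM in the WT and 236.6, 241.3 and 239.2 CPM in the KO mice, a log2 fold change of -0.39 (edgeR adjusted p = 0.0262). The groups did not overlap for Rgs2, Rgs5 or Rock2. In this list KO values lay wholly above WT values in 6 of 31 genes and wholly below in 7. Over all genes the shares were 17.0% and 15.6%. With single mice left out, the calls of Rgs2 and Rgs5 held in 1 and that of Rock2 in 3 of 6 fits.

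No gene passed edgeR's test in the other 4 lists. At an unadjusted p of at most 0.05 there were 13 of 36 genes of Gs, Gi and cyclic AMP signalling, 2 of 12 tested genes of acetylcholine and catecholamine handling, 2 of 5 of endothelin synthesis and breakdown, and 0 of 4 of histamine handling, beside 25.5% of all genes tested. DESeq2 called 4, 1, 0 and 0 genes of these lists and the edgeR exact test called 2, 1, 0 and 0, in the same order. Beside these stand 11.3% and 8.62% of all the genes that DESeq2 and the exact test tested. Adcy2, an adenylyl cyclase, had the lowest p of the first of these lists, with a log2 fold change of -0.38 (edgeR adjusted p = 0.063). Pde4b, a cyclic AMP phosphodiesterase, had the largest fold change of that list, at -0.65 (edgeR adjusted p = 0.0637). Slc6a2, the noradrenaline transporter, had a log2 fold change of -0.40 (edgeR adjusted p = 0.0721), and Edn1, the endothelin precursor, had one of -0.31 (edgeR adjusted p = 0.123). Chat, which makes the acetylcholine that Chrm1, Chrm2 and Chrm3 bind, and Th, which makes catecholamines, had 0 counts in every library. RNA counts of lung tissue do not measure how much acetylcholine or catecholamine reaches these receptors.

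Marker genes of muscle and white blood cells are given beside these receptors. Markers of other cell types had median log2 fold changes of -0.10 (pericytes and fibroblasts), -0.14 (endothelium), -0.23 (epithelium) and 0.24 (neurons). Of the 8 endothelial markers 1 passed edgeR's test, lower in KO mice, beside 2.67% of all genes. The other lists named in that sentence had 0. For Chrm3, the 10 smooth muscle markers had log2 fold changes below 0 in 10 of 10, beside 8415 of all 17037 genes tested. The median of these 10 was -0.49. Their summed level was 692.5 to 1023.5 CPM in WT and 555.0 to 709.6 CPM in KO mice, which overlap since WT4 lay below KO6. Myh11, smooth muscle myosin and the most abundant of them in CPM, measured 184.2 ± 39.4 CPM (SD, n = 3) in WT and 160.6 ± 19.6 CPM (SD, n = 3) in KO mice, with overlapping groups and a log2 fold change of -0.20 (edgeR adjusted p = 0.474). Acta2, smooth muscle actin, measured 165.0 ± 34.3 CPM (SD, n = 3) in WT and 113.8 ± 21.1 CPM (SD, n = 3) in KO mice, and 0 of the 10 passed edgeR's test, with 7 at an unadjusted p of at most 0.05. DESeq2 called 6 of the 10 and the edgeR exact test called 1. None of these markers was at 0 in all mice. Over all genes tested, 25.5% had an unadjusted p of at most 0.05 in edgeR's test. Of the genes they tested, DESeq2 called 11.3% and the edgeR exact test 8.62%. For Chrm2, the 10 cardiac muscle markers, which lung tissue can carry in the walls of its large veins or as attached heart tissue, were highest in KO6 and WT5. Their sum ran from 531.2 to 1310.1 CPM in WT and from 197.9 to 1459.4 CPM in KO mice. The lowest sum was in KO5 and the highest in KO6, as for Chrm2 itself, while KO4 had a high Chrm2 level beside a low sum of 315.5 CPM. No cardiac marker passed in edgeR's test (0 at an unadjusted p of at most 0.05), in DESeq2 or in the edgeR exact test, and none was at 0 in all mice. The part of muscle content in the levels of Chrm2 and Chrm3 was not tested.

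For Cysltr1 and Ptger2, 9 monocyte markers without Ace, which lung endothelium also makes, rose in 9 of 9 with a median log2 fold change of 1.13. Beside 3.72% of all genes tested, all 9 passed edgeR's test after adjustment, higher in KO mice. Their sum was 250.1, 204.9 and 208.6 CPM in WT4, WT5 and WT6 and 399.1, 359.2 and 494.3 CPM in KO4, KO5 and KO6, with no overlap, as in both receptors. Csf1r, the most abundant of the 9, had a log2 fold change of 0.57 (edgeR adjusted p = 0.0262), and Ace, left out of the sum after its values were seen, had one of 0.01. In the list of 10 with Ace, DESeq2 and the edgeR exact test each called 9. With Ace the monocyte sums lay closer together, at 1638.6 to 1688.1 CPM in WT and 1713.1 to 2039.3 CPM in KO mice. The 10 B cell markers were likewise above the WT range in every KO mouse, with sums of 343.8 to 1639.4 CPM in WT and 3126.4 to 4467.0 CPM in KO mice, though 0 of them passed edgeR's test after adjustment and 10 before it. DESeq2 called 8 of these and the edgeR exact test called 10. The mast cell markers without Kit, left out in the same way, summed to 2.21 to 5.89 CPM in WT and 3.76 to 8.64 CPM in KO mice, with 0 of 5 tested genes passing and 2 at an unadjusted p of at most 0.05, and DESeq2 and the edgeR exact test called 0. Kit itself, which other lung cells also make, measured 209.0 ± 7.51 CPM (SD, n = 3) in WT and 200.5 ± 8.34 CPM (SD, n = 3) in KO mice (log2 fold change -0.06), and with Kit the sums were 204.0 to 218.0 CPM in WT and 199.9 to 213.7 CPM in KO mice. The 10 alveolar macrophage markers summed to 626.2 to 914.4 CPM in WT and 712.2 to 927.9 CPM in KO mice, with overlap, and 1 of them rose. The 8 T cell markers summed to 47.6 to 53.3 CPM in WT and 56.1 to 144.5 CPM in KO mice, and 0 passed edgeR's test, with 7 at an unadjusted p of at most 0.05, 5 called by DESeq2 and 1 by the edgeR exact test. Beside these counts, 25.5% of all genes tested had an unadjusted p of at most 0.05 in edgeR's test, and 6.39% passed after adjustment. Of the genes they tested, DESeq2 called 11.3% and the edgeR exact test 8.62%. KO values lay wholly above WT values in 17.0% of all genes. No marker in these 5 lists was at 0 in all mice. The part of these cell types in the levels of Cysltr1 and Ptger2 was not tested.

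**Figure D5:**
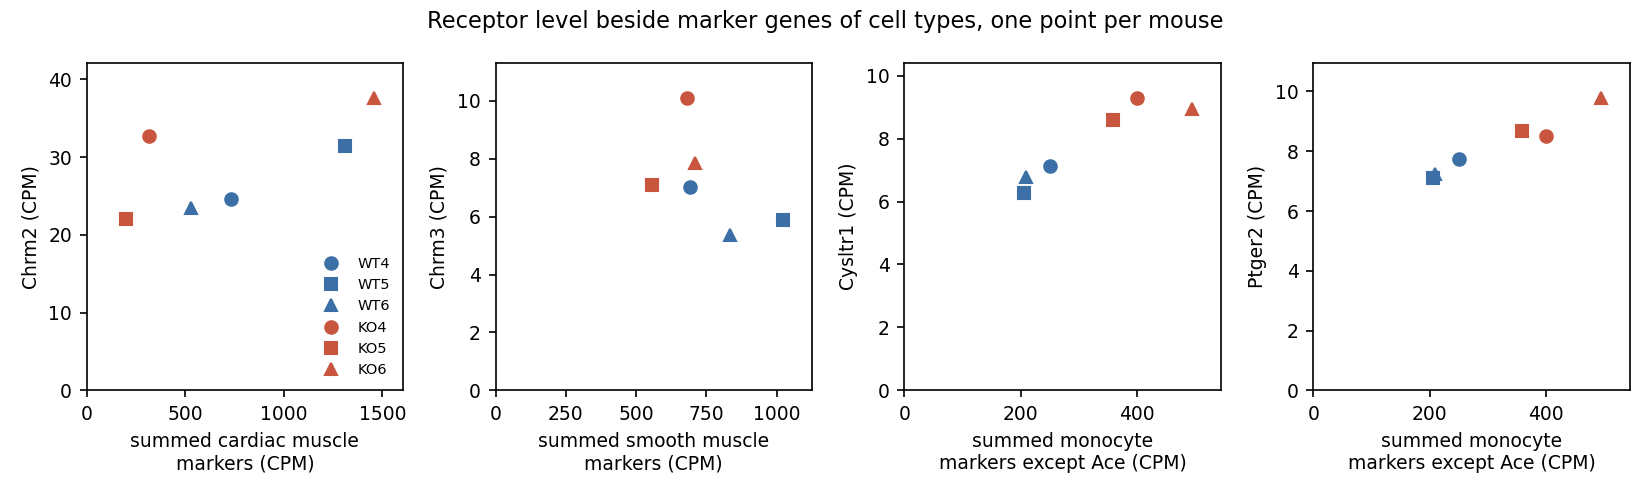
Level of 4 receptors in CPM against the summed level in CPM of marker genes, with one point per mouse. Cysltr1 and Ptger2 are higher in the 3 KO mice than in the 3 WT mice. The monocyte marker sums, drawn without Ace, which was left out after its values were seen, are 359.2 CPM or more in KO mice. In WT mice these sums are 250.1 CPM or less. The smooth muscle marker sums beside Chrm3 overlap between the groups (692.5 CPM in WT4 and 709.6 CPM in KO6).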

How the data were processed

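Lungs of 3 WT and 3 KO mice were sequenced at ZT10, after stranded mRNA library preparation. The authors trimmed the reads, aligned them to GRCm38 and counted them per gene, and they deposited whole counts without normalization (Trimmomatic 0.36, STAR 2.5.3a, Picard 2.9.0 and HTSeq 0.6.0 per the submitters' processing notes). The annotation release and strand setting are not given in the sources used here. Samples were grouped by the genotype in their labels, and none was left out.

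From the deposited counts, KO was tested against WT in R 4.3.3 with edgeR 4.0.16 (quasi-likelihood test, TMM, the default filter with minimum count 10 and total 15, no covariates), with Benjamini-Hochberg adjustment over 17037 genes. Where edgeR's Poisson bound set the p-value (Hrh1), the standard error is the counting error. Positions and exon lengths came from GENCODE M21 for GRCm38. Alternatives were DESeq2 size factors, upper-quartile factors, no filter on low counts, a minimum of 10 counts in all libraries, DESeq2 1.42.0, the edgeR exact test, the replicate number as a block, and each mouse left out. The fit was tested on simulated data.

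The 9 receptors and all gene lists were chosen with earlier results of these data known. Named were the 9 receptors, every other receptor of airway tone at an adjusted p of at most 0.05, genes among the 4 of lowest p of each other list, and markers of high mean CPM. Ptafr, Bdkrb1, Ptgir, Vipr2, Chat, Th, Kit and Ace fall outside this rule and were named after their values were seen. Tables and figures used Python 3.11.15, pandas 2.3.3 and Matplotlib 3.10.9.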

Additional observations from a re-analysis of the deposited data

How the results depend on the processing

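None of the 9 receptors passed an adjusted p of 0.05 in any of the 13 alternatives, and 112 of 116 log2 fold changes recomputed for them kept their direction. The 4 that changed sign were Hrh1, at 0.06 without WT6, 0.01 without KO4 and 0.00 without KO6, and Ednra, at 0.03 without WT5. With 1 mouse left out Hrh1 ran from -0.17 to 0.06 and Ednra from -0.17 to 0.03. The cause was not tested. Chrm1 had no value with at least 10 counts in every library, since that filter removed it. Of the other receptors of airway tone, 2 passed in the main test, 5 in DESeq2, and 0 to 4 with 1 mouse left out. Over all genes 1089 passed, against 1857 in DESeq2 and between 1 (without WT5) and 1278 (without KO4) with 1 mouse left out. It was 254 without WT4, 63 without WT6, 933 without KO5 and 117 without KO6, with fewer samples in each of these fits. No scaling moved the median log2 fold change of all genes by more than 0.01.

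With the replicate number as a block, 0 of the 9 receptors, 0 other receptors of airway tone and 66 genes in all passed. Mice with the same number did not deviate together (correlations of -0.0316, -0.154 and -0.021 for numbers 4, 5 and 6). No mouse correlated best with its own number. These values show no pairing by number, but with 3 mice in each group they cannot exclude one. Depth limits Chrm1 and Hrh1 most, at 9 to 34 counts per mouse.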
